A study of Homo sapiens with 9 samples.

Results

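KRT7, KRT8, KRT18 and KRT19 encode the keratins typical of simple, single-layered epithelia, and their mRNA was followed here in sorted fractions of a keratinocyte line. The genes were taken by symbol from a fixed list of 4 names, and each matched a single ID among the 78899 gene IDs of each count file. All 4 passed the filter on low counts. The cells are HaCaT, an established immortalized human keratinocyte line, so every group shares the same line, grown in high-glucose DMEM with serum and low calcium. The tested material was 3 libraries of a fluorescence-sorted subpopulation named BD and 3 of a sorted subpopulation named NBD, set against 3 libraries of the line named control. The labels spell out neither name and give no sort marker. Nothing says that the replicates were separate cultures, and p-values then describe only the spread between libraries, which may be technical. RNA was taken with 2 different kits, and the labels do not tie a library to a kit. The study asked how sorted fractions of the line differ in states linked to progenitor cells.

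Keratins are intermediate filament proteins that polymerize only as pairs, a type II (basic) chain with a type I (acidic) chain. KRT8 (type II) and KRT18 (type I) form the basic pair of simple epithelia such as liver and gut, KRT7 is a type II keratin of ducts and glands, and KRT19 is the smallest type I keratin, found in simple epithelia and in parts of the hair follicle. Basal keratinocytes of the epidermis are instead defined by the KRT5 and KRT14 pair, while cultured keratinocytes commonly make simple keratins as well.

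The 4 genes resemble each other at the end of the helical rod, a conserved stretch that is important for filament assembly. The coding strand of that stretch, 48 bases long, is shown for the type I members KRT18 and KRT19, from GENCODE 29 transcripts on GRCh38. Capitals mark the 30 bases that are the same in all 4 genes.
KRT18 (chr12:52952278-52952325, plus strand): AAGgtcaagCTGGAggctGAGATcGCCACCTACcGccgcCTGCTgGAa
KRT19 (chr17:41523791-41523838, minus strand): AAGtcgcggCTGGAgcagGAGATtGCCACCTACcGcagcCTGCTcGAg

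The type II members KRT7 and KRT8 were the closest pair, with 76.8% identity over the aligned coding sequence, and the other pairs had 64.4% to 67.7%. Processed copies of these genes are closer to their parents still, which bears on how reads are assigned. The same stretch is shown for 2 pseudogenes of the type I members, with capitals at the bases that differ from the parent gene.
KRT18P31 (chr5:36886312-36886359, plus strand): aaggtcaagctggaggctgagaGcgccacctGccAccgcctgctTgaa
KRT19P1 (chr6:71585813-71585860, plus strand): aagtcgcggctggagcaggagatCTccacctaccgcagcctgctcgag

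KRT18P31 differs from KRT18 at 4 of these bases and KRT19P1 from KRT19 at 2. KRT8 has 51 listed pseudogenes, KRT18 has 68, KRT19 has 5 and KRT7 has 0. Few reads were assigned to them. The KRT8 copies together held 1.49% to 2.37% as many counts as KRT8 itself, the KRT18 copies 0.382% to 1.96% as many as KRT18, and the KRT19 copies at most 0.00808% as many as KRT19. Of the 50-base windows of the coding sequence, 48.4% in KRT8 and 58.0% in KRT18 also occur exactly in transcripts of another gene, against 13.5% in KRT7 and 2.09% in KRT19. For 100-base windows the shares were 8.89% in KRT8, 20.4% in KRT18, 9.71% in KRT7 and 0.0% in KRT19. Of the genes holding a 50-base match, 33 of 37 for KRT8 and 43 of 45 for KRT18 were their own pseudogenes, while the 100-base matches of KRT18 were all in KRT8 and those of KRT7 all in its antisense transcript. How reads with several matches were counted is not stated, so the counts of KRT7, KRT8 and KRT18 are less certain than those of KRT19.

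On GRCh38, KRT7 (ENSG00000135480) lies on chromosome 12 from 52232520 to 52252186 on the plus strand. KRT8 (ENSG00000170421) lies on the same chromosome from 52897187 to 52949954 on the minus strand. KRT18 (ENSG00000111057) runs from 52948871 to 52952901 on the plus strand, so the annotated starts of KRT18 and KRT8 overlap by 1084 bases on opposite strands. The libraries were stranded, but whether the counting used strand is not stated, and reads from this overlap could then go to either gene. The KRT7 locus overlaps KRT86, a hair keratin with 4 to 25 counts per library, and the antisense transcript KRT7-AS, with 1 to 12. KRT19 (ENSG00000171345) lies in the type I cluster on chromosome 17 from 41523617 to 41528308 on the minus strand, beside KRT15 (41513743 to 41522529) and near KRT13 (41500981 to 41505705).

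Total counts were 25754757 to 28948743 in BD and 25862752 to 29512856 in NBD libraries. Control replicates 1, 2 and 3 had 18054999, 17128797 and 25782938. Control replicates 1 and 2 thus had fewer counts than all other libraries, and the part of depth in the differences below was not tested. The share of counts from mitochondrial rRNA was 17.3% to 22.3% in BD, 26.8% to 28.9% in NBD and 11.9% to 20.7% in control libraries, and with those genes removed the KRT19 log2 fold change was 0.62 in BD against NBD and 0.90 in BD against control, with 0 members called by edgeR in any comparison. The control libraries did not form a uniform group. KRT13, a type I keratin of mucosal epithelia, had 4.19 and 4.43 CPM in the first pair of control libraries but 1427 CPM in control replicate 3. BD libraries had 389, 1122 and 1479 CPM of KRT13 and NBD libraries 367, 734 and 1328 CPM. Values against control are therefore given with all libraries, without control replicate 3, and with it as the only control. CPM here are depth-scaled counts relative to the library total after TMM, edgeR's scaling of library sizes.

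KRT7 had 716, 885 and 596 CPM in BD libraries, 553, 680 and 446 CPM in NBD libraries, and 526, 670 and 543 CPM in control libraries. The 3 groups overlapped. In each sorted group replicate 2 was the highest and replicate 3 the lowest. The means were 733 ± 145 CPM in BD, 560 ± 117 in NBD and 580 ± 78.5 in control (SD, n = 3 each).

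KRT8, the partner of KRT18, had 689, 691 and 475 CPM in BD libraries, 543, 618 and 422 CPM in NBD libraries, and 455, 552 and 465 CPM in control libraries. It was the steadiest of the 4 genes, with a 1.63-fold span between its highest and lowest library. BD averaged 618 ± 124 CPM, NBD 528 ± 98.9 and control 491 ± 53.3 (SD, n = 3 each), and all 3 groups overlapped.

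KRT18 had 374, 453 and 292 CPM in BD libraries, 259, 375 and 241 CPM in NBD libraries, and 464, 573 and 242 CPM in control libraries. Control replicates 1 and 2 were the 2 highest of the 9 libraries, while control replicate 3 was close to the lowest NBD library. The means were 373 ± 80.5 CPM in BD, 291 ± 72.6 in NBD and 426 ± 168 in control (SD, n = 3 each). The span between the highest and the lowest library was 2.38-fold.

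KRT19 had 859, 1170 and 1085 CPM in BD libraries, 694, 618 and 736 CPM in NBD libraries, and 388, 468 and 816 CPM in control libraries. Every BD library was above every NBD and every control library, and control replicates 1 and 2 were the lowest of all. It had the widest span of the 4 genes, 3.01-fold between the highest and lowest library. BD averaged 1038 ± 161 CPM, NBD 683 ± 59.8 and control 557 ± 227 (SD, n = 3 each).

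**Figure D1:**
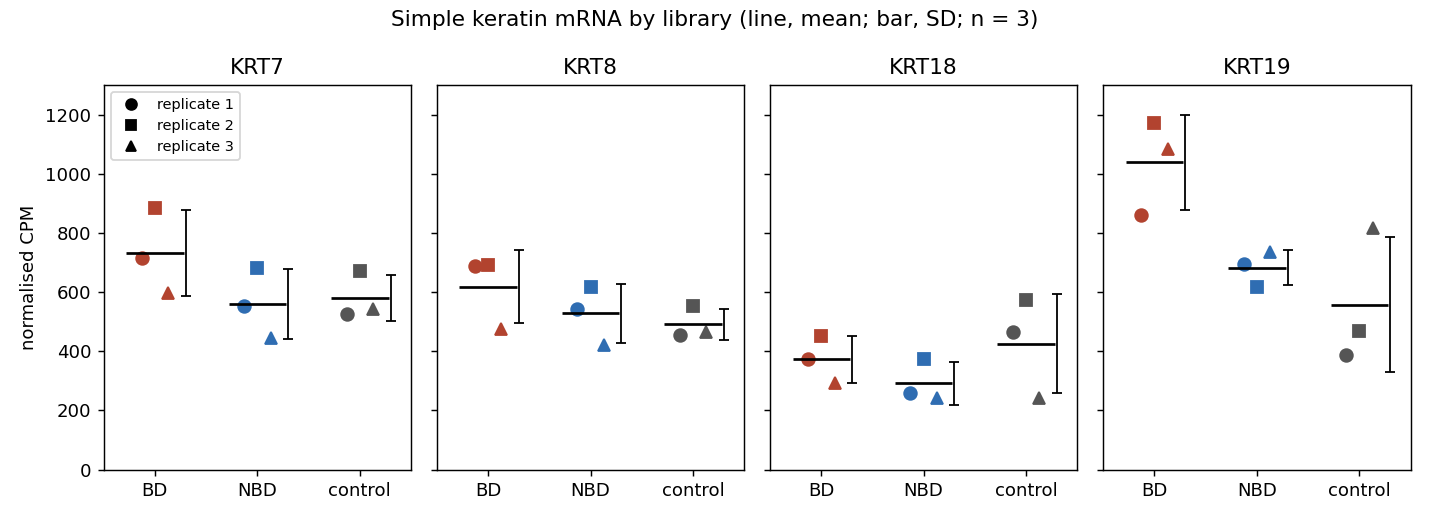
Normalised CPM (vertical axis, from 0) of KRT7, KRT8, KRT18 and KRT19 in BD, NBD and control libraries. Each point is a library with its replicate number as the symbol, the line is the group mean and the bar the SD (n = 3). KRT19 in BD, at 859 to 1170 CPM, lies above all other libraries, and control replicate 3 stands apart from the other control libraries for KRT18 and KRT19.

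BD against NBD compares the sorted fractions directly, and in it all 4 simple keratins had a higher mean in BD but none passed the test. KRT19 had the biggest difference, 1.52-fold, a log2 fold change of 0.60 ± 0.28 (SE) with an adjusted p of 0.814 by edgeR's quasi-likelihood test and 0.693 by DESeq2. Its BD and NBD libraries did not overlap, but 7.19% of all tested genes were likewise higher without overlap. KRT7 differed by 0.39 ± 0.24, KRT18 by 0.35 ± 0.32 and KRT8 by 0.23 ± 0.23 on the log2 scale, with edgeR adjusted p of 0.829, 0.887 and 0.897. These SE come from the fit of all 9 libraries, so they also carry the spread of the control libraries. From the 6 sorted libraries alone, edgeR gave KRT19 at 0.59 ± 0.21 (adjusted p = 0.546) and KRT18 at 0.34 ± 0.24 (0.699). KRT7 was then at 0.37 ± 0.24 (0.671) and KRT8 at 0.21 ± 0.23 (0.819).

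With edgeR and all libraries, 0 of 4 members were called at an adjusted p under 0.05 in BD against NBD, where 0.0177% of 16921 tested genes were called (3 genes, with 991 at an unadjusted p under 0.05). DESeq2 called 0 of 4 members and 58 genes, or 0.345% of those it tested. The median log2 fold change of the 4 members was 0.37, against -0.02 over all tested genes. In bulk RNA, fewer expressing cells and less RNA per cell cannot be told apart.

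Replicates of the sorted fractions varied together for 3 of the members. Over the 6 sorted libraries the Pearson correlation of log2 CPM was 0.97 between KRT7 and KRT18, 0.91 between KRT7 and KRT8 and 0.89 between KRT8 and KRT18. KRT19 followed them less closely, at 0.50 with KRT7, 0.40 with KRT18 and 0.17 with KRT8. These values describe 6 libraries that share a scaling and fall in 2 groups, and the part that reads shared between KRT8 and KRT18 play in them was not tested.

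BD against control sets the first sorted fraction beside the line. KRT19 was 1.86-fold higher in BD by the fitted value, a log2 fold change of 0.90 ± 0.28 (SE). Its adjusted p was 0.333 by edgeR and 0.0824 by DESeq2, so it did not pass the threshold with all libraries. The groups did not overlap, as was true in the same direction of 8.05% of tested genes. KRT7 differed by 0.34 ± 0.24 (edgeR adjusted p = 0.498), KRT8 by 0.33 ± 0.23 (0.493) and KRT18 by -0.19 ± 0.32 (0.779).

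In BD against control, 0 of 4 members and 0.0% of the 16921 genes were called by edgeR, while 2334 genes had an unadjusted p under 0.05. DESeq2 called 0 of 4 members and 167 genes, or 0.992%. Without control replicate 3, KRT19 was higher in BD by 1.29 ± 0.22 on the log2 scale and passed the test (edgeR adjusted p = 0.00278). With no filter on low counts and all libraries KRT19 was also called (0.90, edgeR adjusted p = 0.0359), 1 of 4 members, where 2.95% of 39344 genes were called. In the fit that leaves out control replicate 3, 24.3% of 17755 genes were called, 13.8% of them higher and 10.5% lower as shares of all genes tested, so the call of 1 member of 4 there is close to the background share. KRT18 was then at -0.46 ± 0.25 (edgeR adjusted p = 0.203), KRT7 at 0.30 (0.403) and KRT8 at 0.31 (0.388). Set against control replicate 3 alone, KRT19 was at 0.34 and KRT18 at 0.62. That fit has a single control library, assumed to vary like the other groups, and called 0 of 18832 genes by edgeR (208 at an unadjusted p under 0.05), so its values are read for direction only.

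NBD against control gave smaller differences for KRT7, at -0.05 ± 0.24 (edgeR adjusted p = 0.943), and for KRT8, at 0.11 ± 0.23 (0.860). KRT18 was at -0.55 ± 0.32 (edgeR adjusted p = 0.556) and KRT19 at 0.29 ± 0.28 (0.677). None of the 4 members had groups that did not overlap, where 4.67% of genes were higher and 3.75% lower without overlap. edgeR called 0 of 4 members and 0.0% of 16921 genes, with 1545 at an unadjusted p under 0.05, and DESeq2 called 0 of 4 members and 30 genes, or 0.178%.

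Without control replicate 3 KRT18 was lower in NBD, with a log2 fold change of -0.81 ± 0.25, and passed the test (edgeR adjusted p = 0.0453). KRT19, at 0.69 ± 0.22, just missed the threshold (edgeR adjusted p = 0.0504). In that fit 18.2% of genes were called, 11.6% higher and 6.56% lower, so here too 1 called member of 4 is near the background. With control replicate 3 alone KRT18 was at 0.25 and KRT19 at -0.27, the opposite signs. The comparisons with control share the same control libraries, and BD against NBD shares its libraries with both.

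**Figure D2:**
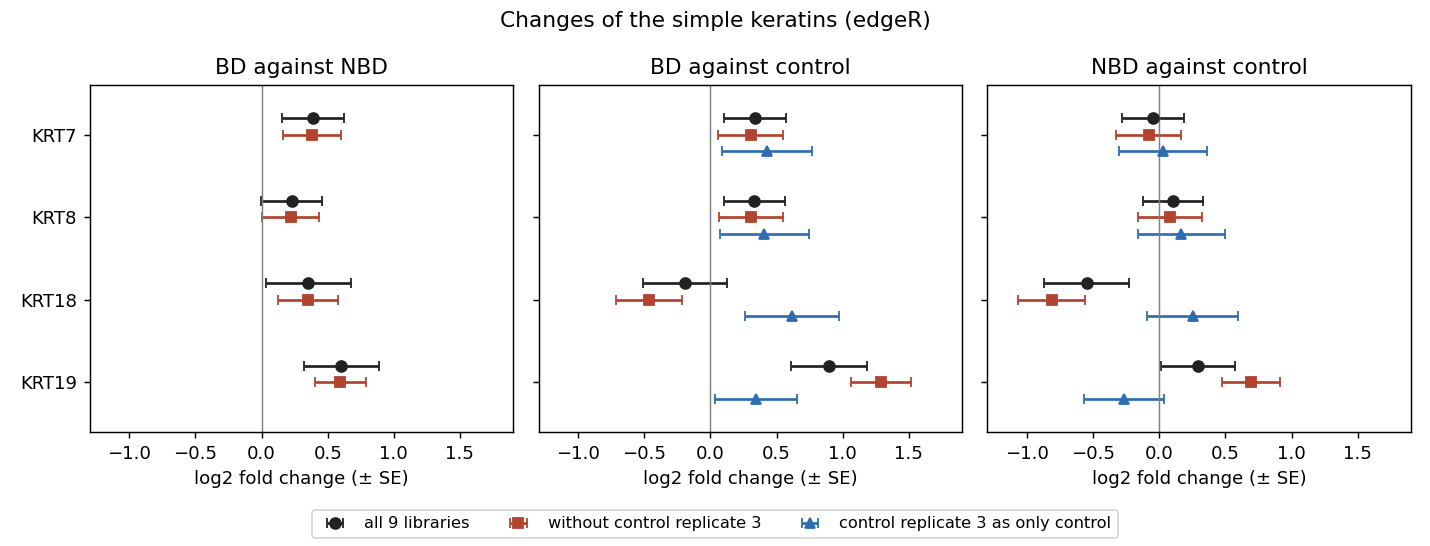
Log2 fold changes (horizontal axis, ± SE, from edgeR) of the 4 simple keratins in the comparison of BD with NBD and of each with control. Circles use all 9 libraries, squares leave out control replicate 3 and triangles use it as the only control. KRT7 and KRT8 hardly move between the fits, while KRT18 and KRT19 against control move in opposite directions, with KRT19 in BD at 1.29 without that library and at 0.34 against it alone.

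Levels of different genes were compared per kilobase of a representative transcript (1754 bases for KRT7, 1755 for KRT8, 1420 for KRT18 and 1390 for KRT19). On that scale KRT19 led in the sorted fractions, with 747 ± 116 CPM per kb in BD and 491 ± 43.0 CPM per kb in NBD libraries (SD, n = 3 each). KRT7 came next, with 418 ± 82.8 in BD and 319 ± 66.8 in NBD, and KRT8 had 352 ± 70.8 in BD and 301 ± 56.3 in NBD. KRT18 was lowest, with 263 ± 56.7 CPM per kb in BD and 205 ± 51.2 in NBD. KRT7 and KRT8 lay within their spread of each other.

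Control libraries differed in this order. In control replicates 1 and 2 KRT18 led narrowly, at 326 and 403 CPM per kb, with KRT7 at 300 and 382 and KRT19 at 279 and 336. In control replicate 3 KRT19 led at 587 and KRT18 was lowest at 170. The length used matters for part of this. The shortest main transcript of each gene was taken. KRT8 also has one of 2126 bases and KRT18 one of 1562 bases, which would lower their levels per kb. Per kilobase of all annotated exons (4093 bases for KRT7, 6881 for KRT8, 3218 for KRT18 and 2336 for KRT19), KRT19 led in control replicates 1 and 2 as well, at 166 and 200.2 CPM per kb, with KRT18 at 144 and 178. KRT19 averaged 444 CPM per kb in BD, 292 in NBD and 239 in control on this scale. KRT8 was then below KRT18, with 89.8 against 116 CPM per kb in BD.

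The balance of the KRT8 and KRT18 pair separated the same control libraries. The ratio of KRT8 to KRT18 per kilobase of transcript was 1.49, 1.23 and 1.32 in BD, 1.70, 1.34 and 1.42 in NBD, and 0.795, 0.780 and 1.55 in control libraries. With exon lengths every ratio was lower, but control replicates 1 and 2, at 0.459 and 0.451, were again below the other 7 libraries, which had 0.713 to 0.982. The ratio of KRT19 to KRT18, both type I, was 2.35, 2.64 and 3.80 in BD, 2.74, 1.68 and 3.12 in NBD, and 0.856, 0.834 and 3.44 in control libraries. Between BD and NBD these ratios overlapped.

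Simple keratins made up a large share of all keratin counts. The 4 genes together held 55.2%, 49.6% and 38.0% of the counts of all keratin genes in BD, 52.2%, 44.1% and 35.3% in NBD, and 46.5%, 46.6% and 36.5% in control libraries. The groups overlapped, and the third replicate was the lowest of its group each time. The widest 95% Wilson interval of these shares spanned 0.704 percentage points, which covers counting error only. In summed CPM the 4 genes reached 2448 to 3199 in BD, 1846 to 2291 in NBD and 1833 to 2262 in control libraries. Every BD sum was thus above every NBD and control sum. Of the 4 genes only KRT19 showed this by itself, and KRT7, KRT8 and KRT18 overlapped in both comparisons. Among all single genes tested, 7.19% were higher in BD without overlap against NBD and 8.05% against control.

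KRT19 alone held 17.7% ± 0.700 of keratin counts in BD and 14.6% ± 2.91 in NBD libraries (SD, n = 3 each). Control libraries had 9.86%, 9.64% and 14.4%. KRT18 held 6.46% ± 1.71 in BD and 6.14% ± 1.36 in NBD libraries, while control libraries had 11.8%, 11.8% and 4.27%. In control replicates 1 and 2 the smaller KRT19 share therefore stood beside a larger KRT18 share.

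**Figure D3:**
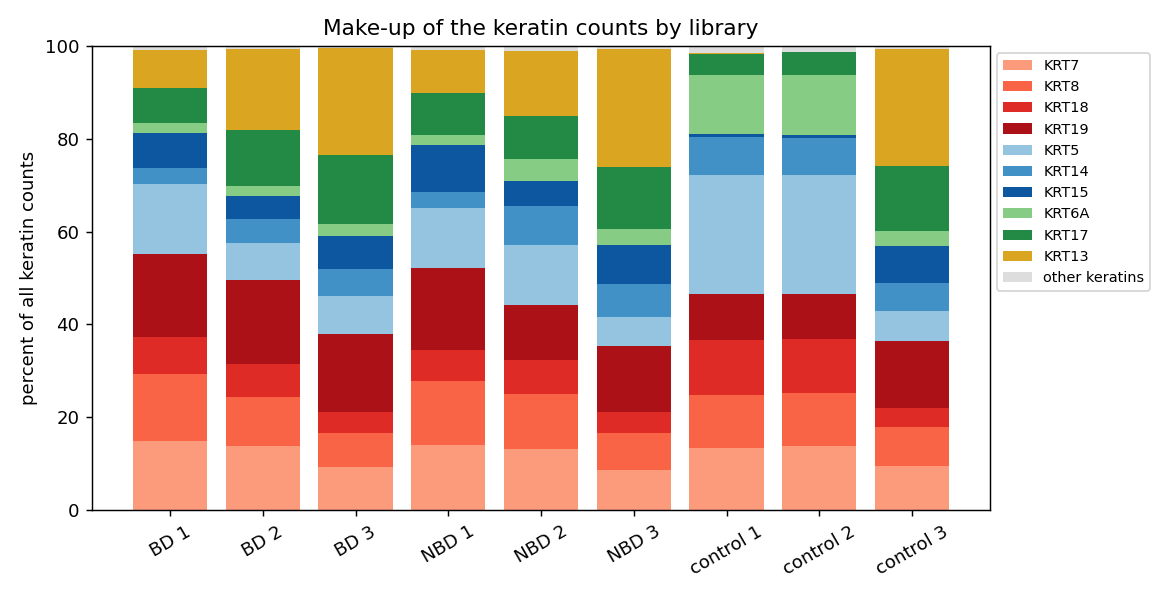
Share of each keratin gene in all keratin counts (vertical axis, percent) in each of the 9 libraries. Red shades are the simple keratins KRT7, KRT8, KRT18 and KRT19, blue the basal keratins, green the stress keratins and gold KRT13. The red part covers 35.3% to 55.2%, and control replicates 1 and 2 hold almost no KRT13 or KRT15.

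Other keratins were read from fixed lists. KRT5, the basal type II keratin and the highest of its list, had 720, 509 and 521 CPM in BD, 508, 668 and 323 in NBD, and 1012, 1242 and 367 in control libraries. KRT17, a type I keratin induced by wounding and the highest of the stress list, had 367, 782 and 957 CPM in BD, 354, 478 and 702 in NBD, and 180, 238 and 794 in control libraries. For KRT5 and KRT17, as for KRT18 and KRT19, control replicate 3 was inside the range of the sorted libraries and the other control libraries were outside it. KRT7 and KRT8 were inside that range in all 3 control libraries. KRT14, the type I partner of KRT5 and named after its values were seen, was inside it too, with 162, 340 and 379 CPM in BD, 139, 437 and 380 in NBD, and 321, 387 and 343 in control libraries. KRT15, a basal keratin encoded beside KRT19 and named after its values were seen, showed the split of KRT5 and KRT17, with 359, 314 and 446 CPM in BD, 393, 285 and 431 in NBD, and 27.1, 27.3 and 442 in control libraries.

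No listed keratin was called by edgeR with all libraries. DESeq2 called KRT6A, a stress keratin, lower in BD than in control (adjusted p = 0.0243, where 0.927% of genes were called lower), with 103, 137 and 169 CPM in BD and 499, 630 and 189 in control libraries. Its NBD libraries had 86.8, 246 and 183 CPM. The edgeR log2 fold change for BD against control was -1.69 ± 0.46 (adjusted p = 0.333), and BD and control libraries did not overlap, as was true in that direction of 7.72% of tested genes. Once control replicate 3 was left out, edgeR called KRT13 higher in BD (7.86, adjusted p = 1.67e-04) and in NBD (7.57, adjusted p = 2.31e-04), KRT5, KRT80 and KRT6A lower in both, and KRT15, KRT16 and KRT17 higher in both. In that fit 24.3% of all genes were called in BD against control and 18.2% in NBD against control.

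Other simple-type keratins were near 0. KRT20, the gut and Merkel cell keratin, reached at most 0.236 CPM and KRT23 at most 1.57 CPM in any library, where 3 counts correspond to 0.103 to 0.168 CPM. KRT80, the highest of the hair and other keratins, averaged 21.1 ± 5.01 CPM in BD, 19.7 ± 11.6 in NBD and 39.6 ± 24.3 in control (SD, n = 3 each). Summed over all keratins per kilobase, the ratio of type II to type I was 0.707, 0.434 and 0.307 in BD, 0.627, 0.606 and 0.298 in NBD, and 1.27, 1.28 and 0.319 in control libraries.

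**Figure D4:**
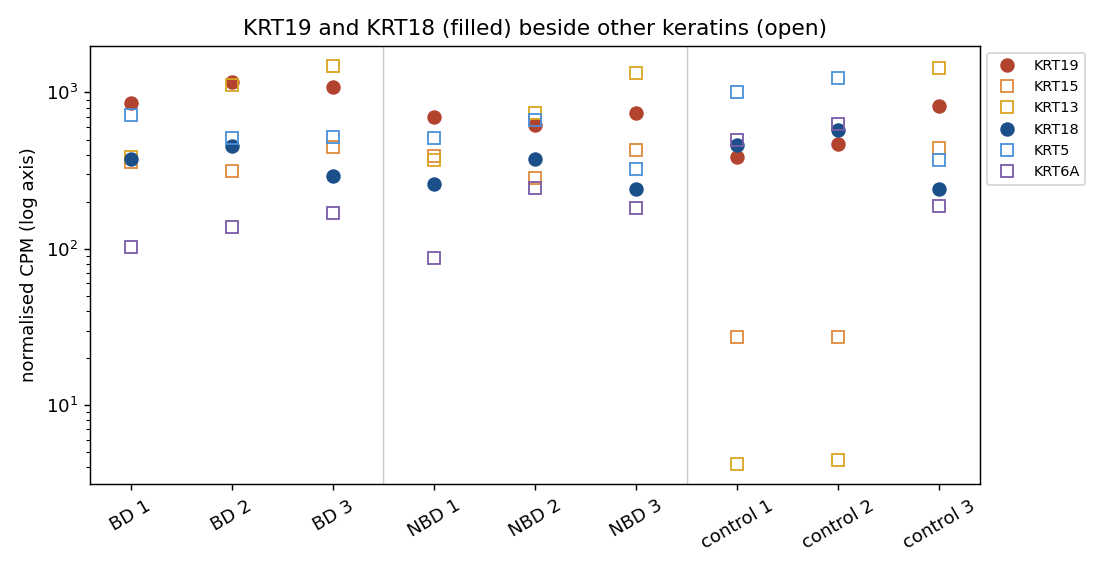
Normalised CPM (vertical log axis) of KRT19 and KRT18 (filled circles) and of KRT15, KRT13, KRT5 and KRT6A (open squares) in each library, in the order BD, NBD, control. In control replicates 1 and 2 KRT19, KRT15 and KRT13 are low while KRT18, KRT5 and KRT6A are high, and control replicate 3 has the levels of the sorted libraries.

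The protein-coding genes whose levels followed each member most closely were taken by the correlation of log2 CPM over the 9 libraries. KRT19 was followed by PCK2, a mitochondrial enzyme of gluconeogenesis (r = 0.988), VASP, which promotes actin filament growth (0.987), and TAP1, a peptide transporter of antigen presentation (0.987). KRT18 was followed by KPNB1, a nuclear import receptor (0.980), MBP, best known from myelin (0.978), and the Mediator subunit MED27 (0.972). KRT7 was followed by GPR39 (0.960), the DNA ligase LIG3 (0.919) and the tyrosyl-tRNA synthetase YARS1 (0.917). KRT8 was followed by the RNA helicase DDX39A (0.900), VPS52 of retrograde transport (0.899) and the hydroxylase DOHH (0.898). Over the 6 sorted libraries these correlations were 0.875 to 0.991. They rank genes over few libraries that split within the control group and carry no test.

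Proteins that anchor, cap or chaperone keratin filaments were listed with 18 genes, all tested. None was called in any comparison by edgeR with all libraries or by DESeq2, and the median log2 fold change was 0.11 in BD against NBD, 0.00 in BD against control and -0.12 in NBD against control. YWHAZ, a 14-3-3 protein and the highest of the list, averaged 582 ± 34.9 CPM in BD, 620 ± 179 in NBD and 908 ± 344 in control (SD, n = 3 each). Without control replicate 3, edgeR called 3 of 18 lower in BD and 3 of 18 lower in NBD and 0 higher, against 10.5% and 6.56% of all genes lower. They were YWHAZ and, named after their values were seen, the desmosomal genes DSP and PKP2. DSP had 370, 272 and 359 CPM in BD, 403, 542 and 245 in NBD, and 895, 840 and 364 in control libraries.

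Surface and junction genes of simple epithelia were listed with 20 genes, of which 14 were tested, and none was called with all libraries by edgeR or DESeq2. The median log2 fold change was 0.11 in BD against NBD, -0.02 in BD against control and -0.01 in NBD against control. EPCAM, an adhesion molecule of simple epithelia named after its values were seen, averaged 114 ± 10.8 CPM in BD, 119 ± 17.5 in NBD and 115 ± 2.10 in control (SD, n = 3 each). Leaving out control replicate 3, edgeR called 4 of 14 higher and 1 lower in BD, where 13.8% of all genes were called higher and 10.5% lower. In NBD it called 1 higher and 2 lower, where 11.6% of all genes were called higher and 6.56% lower.

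SPINT1, a membrane inhibitor of serine proteases chosen after its values were seen, was the gene of that list with an unadjusted p under 0.05 in BD against NBD. It had 219, 247 and 242 CPM in BD and 177, 124 and 108 CPM in NBD libraries, and 102, 113 and 208 CPM in control libraries. The log2 fold change of BD against NBD was 0.79 ± 0.29 (edgeR adjusted p = 0.814), so like KRT19 it did not pass.

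Transcription factors of epithelial and simple keratin genes were listed with 28 genes, of which 27 were tested. None was called with all libraries by edgeR or DESeq2, and the median log2 fold change was 0.00 in BD against NBD, -0.02 in BD against control and 0.07 in NBD against control. EHF, an ETS factor of epithelia and the highest of the list, averaged 268 ± 14.6 CPM in BD, 316 ± 65.0 in NBD and 403 ± 103 in control (SD, n = 3 each). Leaving out control replicate 3, edgeR called 11 of 27 higher and 3 lower in BD, where 13.8% of all genes were called higher and 10.5% lower. In NBD it called 11 higher and 1 lower, where 11.6% of all genes were called higher and 6.56% lower. JUN, JUNB, JUND, FOS and FOSB, of the JUN and FOS families and named after their values were seen, were among those called higher in both. FOSL1 and FOSL2 were called in neither. ELF3, another ETS factor of epithelial differentiation, chosen after its values were seen, had 433, 343 and 437 CPM in BD, 347, 182 and 258 in NBD, and 31.2, 33.1 and 326 in control libraries. Its level in the control libraries thus split as those of KRT13 and KRT15 did.

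Caspases and kinases known to cleave or phosphorylate keratins were listed with 12 genes, all tested and none called with all libraries by edgeR or DESeq2. Without control replicate 3, 3 of 12 were called higher and 1 lower in BD by edgeR, beside 13.8% and 10.5% of all genes. In NBD 3 were called higher and 0 lower, beside 11.6% and 6.56% of all genes. Among 13 other intermediate filament genes, 7 were tested. LMNA, the nuclear lamin A/C gene and the highest of them, averaged 484 ± 65.2 CPM in BD, 364 ± 70.3 in NBD and 344 ± 42.2 in control. NEFL, a neurofilament chain, was called lower in BD than in control by DESeq2 (adjusted p = 0.0238, where 0.927% of genes were called lower). It was not called by edgeR (adjusted p = 0.333). NEFL averaged 9.40 ± 1.96 CPM in BD, 13.1 ± 9.69 in NBD and 48.3 ± 34.8 in control. Only control replicates 1 and 2 were high, at 62.18 and 74.01 CPM. Control replicate 3, at 8.66 CPM, was below BD replicate 3, at 9.93 CPM, so BD and control libraries overlapped.

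The line was checked against cell type markers. All 8 keratinocyte markers were present, with a summed level of 2941 to 3304 CPM in BD, 2127 to 2837 in NBD and 2672 to 3732 in control libraries. The Merkel cell list, whose cells also carry simple keratins, summed to 10.4 to 22.9 CPM in BD, 11.2 to 27.0 in NBD and 4.50 to 27.6 in control libraries, with 5 of 9 markers at 3 counts or fewer in every library of each group. Mesothelial markers summed to 14.2 to 22.4 CPM in BD, 14.7 to 15.3 in NBD and 19.9 to 40.8 in control libraries. Fibroblast markers summed to 4.10 to 5.24 CPM in BD, 2.89 to 4.22 in NBD and 0.766 to 5.24 in control libraries. Hepatocyte and intestinal markers stayed at or below 1.02 CPM in sum in every library. The list for sweat gland and luminal cells holds the 4 simple keratins themselves and summed to 2571 to 3342 CPM in BD, 1996 to 2428 in NBD and 1952 to 2383 in control libraries, with 5 of its 12 genes at 3 counts or fewer in every BD library.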

How the data were processed

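Total RNA of HaCaT cells was sequenced as stranded, rRNA-depleted, paired-end libraries, per the labels' protocols. The authors deposited unnormalized read counts for each gene, made with FastQC 0.74, Trimmomatic 0.39, STAR 2.7.11b and featureCounts on GRCh38, per the submitters' processing notes. No source used here gives the annotation release, the strand setting or how multi-mapped reads were handled.

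Genes were kept by filterByExpr, scaled by TMM and tested in a single edgeR 4.0.16 quasi-likelihood fit of all 9 libraries (R 4.3.3) with a term per group. The two-sided p-values were adjusted by Benjamini-Hochberg over the 16921 genes tested, and calls needed an adjusted p under 0.05. The script was tested on simulated data that gave each tested gene its spread from the fit of all 9 libraries. Changes were set only in genes above a lower limit on level. The shares for BD against NBD therefore also carry the spread of the control libraries. In BD against NBD it called 0% of 1.5-fold, 19.4% of 2-fold and 93.9% of 4-fold changes. The shares were 0%, 10.4% and 90.9% in BD against control, and 0%, 8.96% and 89.4% in NBD against control. Most changes of 2-fold or less were thus missed, so a gene not called is not shown to be unchanged. Levels are normalised CPM, as mean ± SD, and fold changes carry the SE. Alternatives were DESeq2 1.42.0, limma-voom (limma 3.58.1), other scalings and filters, the replicate number as a block, and leaving out each library. Depth was 17128797 to 29512856 counts per library.

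The members and gene lists were chosen with earlier results of these data known. Beside the members, the rule named genes called by edgeR or DESeq2, up to 4 a list, the highest gene of each list by CPM, and for each member the 3 most correlated protein-coding genes. Some items that the rule names are not reported here. Coordinates and sequences come from GENCODE 29 on GRCh38. A symbol was matched to 61512 of 78899 IDs.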

Additional observations from a re-analysis of the deposited data

How the results depend on the processing

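Of 236 values of a member under an alternative, 225 kept their direction and side of the threshold, 8 changed sign and 3 became called. In BD against NBD no member was called under any of the 19 alternatives, and the KRT19 log2 fold change stayed between 0.50 and 0.71. Against control, the members called numbered 0 to 1 on leaving out a library, in BD and in NBD alike. Without the filter on low counts KRT19 was called in BD against control (edgeR adjusted p = 0.0359, 1 member), when 2.95% of 39344 genes were called; the cause was not tested. Its adjusted p over the 20 alternatives ran from 0.00278 to 1.00.

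The sign changes came with control replicate 3 as the only control, or on leaving out a single library. With control replicate 3 as the only control, KRT18 was at 0.62 in BD and 0.25 in NBD, KRT19 at -0.27 in NBD and KRT7 at 0.027 in NBD. On leaving out a library, KRT18 in BD against control ran from -0.46 to 0.072 (without control replicate 2), KRT7 in NBD against control from -0.21 to 0.088 (without NBD replicate 3) and KRT8 in NBD against control from -0.024 (without NBD replicate 2) to 0.24; the cause was not tested.

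The count of all genes called depended more on the method. In BD against NBD it was 3, against 58 by DESeq2, 5 by limma-voom, 131 with no filter, 8 with upper-quartile scaling, 5 from the 6 sorted libraries alone, 0 with the replicate block and 0 to 16 on leaving out a library. In BD against control it was 0, against 167 by DESeq2, 1 by limma-voom, 1162 with no filter and 0 to 4317 on leaving out a library. In NBD against control it was 0, against 30 by DESeq2, 594 with no filter and 0 to 3228. The high ends were reached without control replicate 3. Same-numbered BD and NBD libraries correlated at 0.591, 0.0642 and 0.306 in their deviations from the group means. Different-numbered BD and NBD libraries correlated at -0.0200, -0.535, -0.476, 0.392, -0.295 and -0.0380. Whether the numbers pair the libraries is not stated, and these values do not settle it. The main fit has no pairing term, and with the replicate block 0 members were called in each comparison.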
